A study of Mus musculus with 2 samples.

Results

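The cells described here are group 3 innate lymphoid cells (ILC3s) of the mouse small intestine that had Ccr6 transcripts, low MHC class II transcripts and no Cd4 transcript. They were chosen by transcript counts alone. A cell barcode was kept with at least 500 detected genes and at most 10% mitochondrial unique molecular identifiers (UMIs, 1 per captured RNA molecule). A member then had 0 UMIs of the CD3 chain genes Cd3e, Cd3d and Cd3g, at least 1 UMI of Ccr6, 0 of Ncr1 and 0 of Cd4, and at most 2 UMIs summed over H2-Aa, H2-Ab1 and H2-Eb1. This rule found 1742 cells among 20041 kept cells, or among the 18658 kept cells without a CD3 chain UMI. They are called Ccr6+ cells below, and the remaining CD3-negative cells are called the other CD3-negative cells.

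Innate lymphoid cells are tissue lymphocytes without rearranged antigen receptors. Among those of group 3, the CCR6-bearing kind resembles the lymphoid tissue inducer (LTi) cells that seed lymph nodes and Peyer's patches before birth through lymphotoxin and RANKL, and that gather in cryptopatches of the adult gut. They carry the receptor for IL-23, which signals through JAK2 and TYK2 to STAT3, and they answer with IL-22, a cytokine that acts on the epithelium, and with IL-17.

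The study compared 1 library of cells given recombinant mouse IL-23 for 2 hours with 1 library labelled Unstimulated. All cells came from the small intestine of Il23r-eGFP reporter mice, so both libraries carry the reporter allele. In both, live eGFP-positive leukocytes were sorted after removal of Peyer's patches, enzymatic digestion and a density gradient, and each was profiled on the 10x Genomics platform. The labels do not say how many mice were used, how old they were, or whether the unstimulated cells were kept in culture for the same 2 hours. Their protocol, worded alike for the 2 libraries, speaks of stimulation in each. Because the sort used a reporter of Il23r, expression of Il23r was part of how all cells were chosen. With 1 library in each condition there was no replicate and no test: every interval below is a 95% interval that covers counting error only, and any difference between the libraries other than IL-23 cannot be told apart from it.

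There were 840 Ccr6+ cells in the IL-23 library and 902 in the unstimulated library. They made up 9.79% (9.17 to 10.4) of CD3-negative cells with IL-23 and 8.95% (8.40 to 9.53) without. Their median depth was 5928.5 UMIs and 2060.5 genes per cell in the IL-23 library and 4803.5 UMIs and 1862 genes in the unstimulated library, close to the 6033 and 4872 UMIs of the other CD3-negative cells in the same libraries. The median mitochondrial share was 3.17% with IL-23 and 2.43% without, and with cells of at most 5% mitochondrial UMIs alone the comparison of the libraries gave 249 higher and 417 lower genes past 1.5-fold, against 249 and 409 from all Ccr6+ cells. Because a deeper cell is more likely to show a Ccr6 UMI, every cell was also thinned to 2000 UMIs before the rule was applied, which left out 342 and 410 shallower cells. The share was then 6.17% (5.67 to 6.70) with IL-23 and 5.74% (5.29 to 6.22) without, and these intervals overlap. The libraries shared 25 kept barcodes, none of them a member in both, and 2 members had a barcode that was also present in the other library.

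The counts that chose the cells are given as a description. A single Ccr6 UMI was the basis of membership for 528 IL-23 cells (62.9%) and 621 unstimulated cells (68.8%), and the highest cell had 10 and 8 Ccr6 UMIs. No MHC class II UMI of the rule was seen in 585 IL-23 and 633 unstimulated members, while 87 and 85 sat at the limit of 2 UMIs. Just outside the rule were 4962 IL-23 and 6444 unstimulated cells that met every condition except a Ccr6 UMI, and 31 and 60 cells that had 3 MHC class II UMIs and met the rest. Ccr6 was detected in 20.1% of all IL-23 and 17.1% of all unstimulated CD3-negative cells without Ncr1. In cells with Ncr1, the receptor NKp46 of the other main ILC3 subset, it was detected in 4.48% and 4.36% although these were deeper, at 7353 and 5978.5 UMIs, against 5802 and 4730 UMIs. After thinning the shares were 9.04% and 8.65% without Ncr1 and 0.919% and 1.46% with it. The other CD3-negative cells therefore include many cells in which Ccr6 may only have gone unseen, which makes the ratios below differences from a mixed group.

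The ILC3 label was set beside its markers. The ILC3 markers Il23r, Il22, Il7r, Id2, Kit, Ahr, Il1r1, Thy1, Rora and Gpr183 were each detected in the Ccr6+ cells of both libraries. Detection in summed cells is a low bar, and all cells were sorted on the Il23r reporter. The full ILC3 list summed to 33176.5 CPM with IL-23 and 12802 CPM without, against 31036 and 10126.5 CPM in the other CD3-negative cells. These markers therefore describe the sorted cells and do not set the Ccr6+ cells apart. Il23r itself stood at 200.0 CPM (the summed UMIs of a cell group scaled to a total of 1000000) with IL-23 and 141 CPM without. Of the markers of other cell types, the 10 T cell genes summed to 17.3 CPM with IL-23 and 18.6 CPM without, and Cd6 and Cd8a were at 0 in both. The 7 B cell genes summed to 11.2 and 8.78 CPM with Ms4a1, Pax5 and Cd22 among those at 0, and the 11 macrophage and dendritic cell genes to 6.84 and 6.74 CPM with Csf1r, Itgax, Adgre1 and Fcgr1 at 0. The 7 genes of NK cells and ILC1s summed to 10.3 and 6.74 CPM with Eomes and Klra8 at 0, against 86.0 and 47.0 CPM in the other CD3-negative cells. That list holds Ncr1, which the rule sets to 0, and without it the other CD3-negative cells had 47.4 and 14.1 CPM. The 8 ILC2 genes summed to 7.02 and 11.4 CPM and the 8 epithelial genes to 5.40 and 4.90 CPM. The 6 genes of stroma or endothelium summed to 73.6 and 59.9 CPM, of which Pecam1, also made by leukocytes, gave 73.6 and 59.4 CPM. The 5 mast cell genes summed to 321 and 505 CPM, all of it from Kit, which ILC3s make too. Plasma cell transcripts also differed between the cell groups: 53.6 CPM with IL-23 and 102 CPM without in Ccr6+ cells, against 584 and 1840.0 CPM in the other CD3-negative cells, with Mzb1 at 0 in Ccr6+ cells. These sums rest on few cells: without the highest cell of each group they were 52.2 and 50.9 CPM in Ccr6+ cells, against 104 and 1472 CPM in the other cells.

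Relative to the other CD3-negative cells of the same library, Ccr6+ cells had higher levels of several LTi genes and lower levels of most measured genes of the NCR+ and type 1 list. A gene was called when it differed at least 1.5-fold in the same direction in both libraries. Of 6803 measured genes (at least 10 CPM in 1 or both groups and at least 20 UMIs in all), 146 were higher, which is 2.15%, and 195 were lower, which is 2.87%. The median gene differed by 0.050 log2 units in the IL-23 library and 0.051 in the unstimulated library, and TMM scaling, which turned these medians to -0.028 and -0.043, gave 104 higher and 250 lower genes, so the balance of the directions depends on the scaling. The genes of the selection rule were left out of these counts.

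The 4 markers given for these cells were all higher. They were given with earlier results of these data known, so this describes the cells and is no support for the label. Batf3, an AP-1 family transcription factor best known from dendritic cells (chr1:191097847-191108945, GRCm38), stood at 54.0 CPM with IL-23 and 47.2 CPM without in Ccr6+ cells, against 21.5 and 16.5 CPM in the other cells. The log2 ratios were 1.33 (1.14 to 1.51) with IL-23 and 1.52 (1.30 to 1.73) without. Foxs1, a forkhead factor (chr2:152931898-152933208), stood at 74.0 and 99.5 CPM, against 33.4 and 40.1 CPM. Alcam, a cell adhesion molecule that binds CD6, stood at 53.6 and 49.4 CPM, against 29.8 and 24.0 CPM. Lta, the soluble lymphotoxin subunit, stood at 42.8 CPM with IL-23 and 75.8 CPM without, against 24.8 and 35.2 CPM. Ccr6+ cells were above the other cells in both libraries for all 4 genes, and no counting intervals overlapped.

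The longer LTi list gave 7 higher and 0 lower among 16 measured genes, with a median log2 ratio of 0.54 in the IL-23 library and 0.77 in the unstimulated library. Tnfsf11, which encodes RANKL, had 256 CPM with IL-23 and 347 CPM without, against 127 and 190.1 CPM in the other CD3-negative cells. Nrp1, a semaphorin and VEGF co-receptor used to mark LTi-like cells, had 171 and 191 CPM, against 111 and 123 CPM. Cxcr5, the receptor for the follicle chemokine CXCL13 (chr9:44511787-44561877), had 48.4 and 35.5 CPM, against 22.3 and 14.3 CPM. Tox and Tox2, related nuclear factors of which Tox is needed for ILC development, and the tetraspanin Cd81 were the remaining higher members apart from Lta. Kit differed by 0.02 and -0.01 log2 units and Il7r by -0.19 and -0.45, under the 1.5-fold limit.

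The plot of CPM in both cell groups shows the 15 genes named for the largest higher ratios and the 10 named for the largest lower ones.

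**Figure D1:**
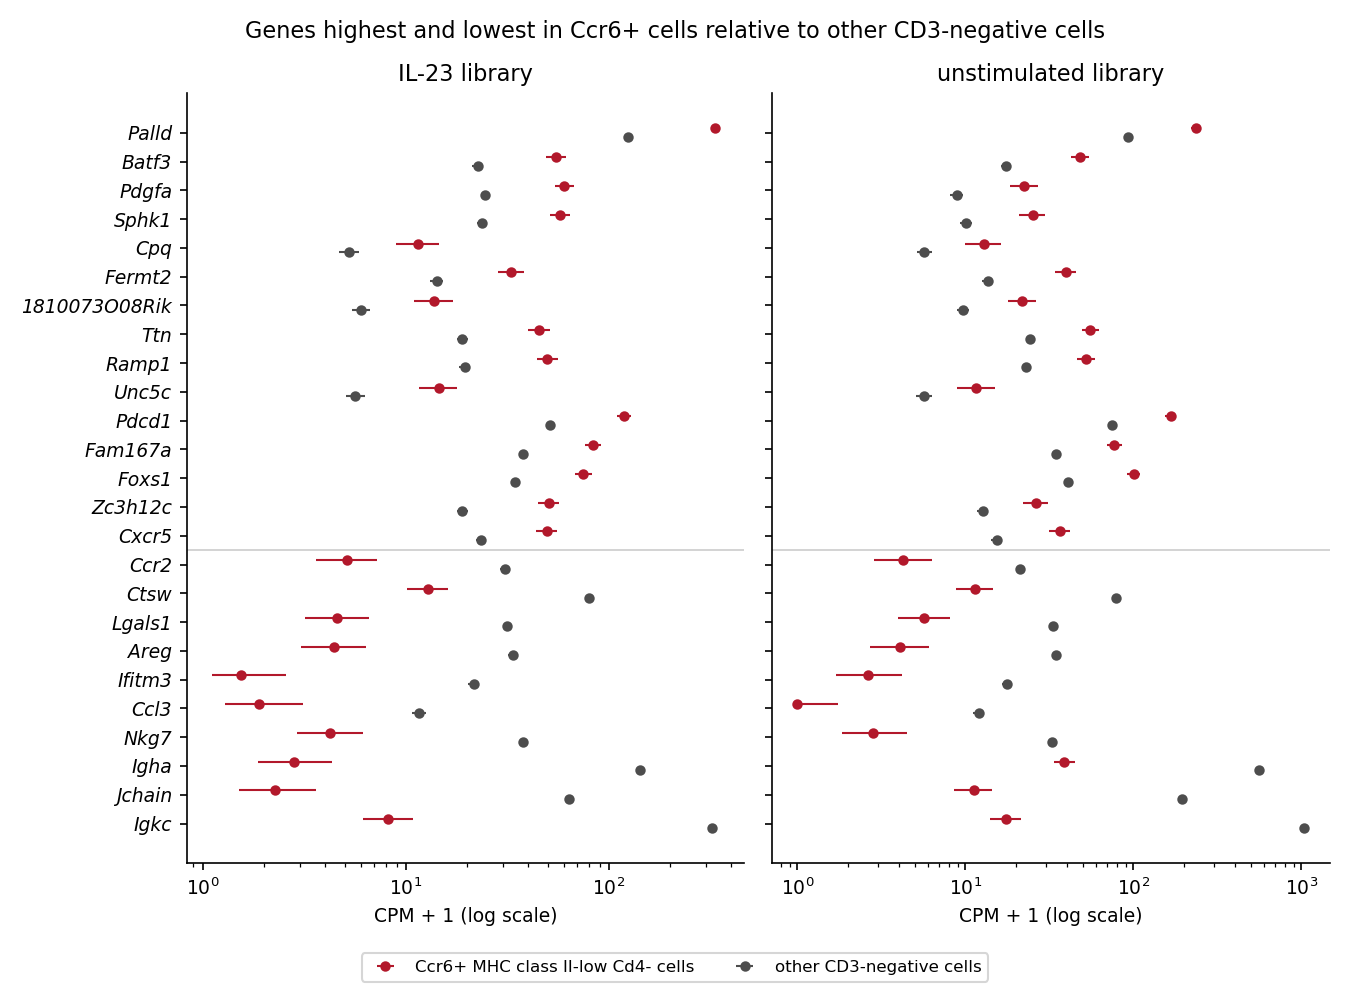
CPM plus 1 on a log axis for the 25 named genes in Ccr6+ cells (red) and other CD3-negative cells (grey), with the IL-23 library on the left and the unstimulated library on the right; bars are 95% Poisson intervals. Palld, at 332 and 233 CPM in Ccr6+ cells, and the 14 genes under it lie right of the other cells in both panels, and the 10 genes below the line lie left of them; Igkc, Igha and Jchain rest on few cells.

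Palld, an actin-bundling scaffold protein (chr8:61511433-61902690), had a log2 ratio of 1.43 with IL-23 and 1.34 without, with 332 CPM (317 to 348) with IL-23 and 233 CPM (220.0 to 247) without, against 124 and 92.2 CPM. It was seen in 49.9% of IL-23 and 43.9% of unstimulated Ccr6+ cells. Fermt2, the integrin activator kindlin-2, had 32.0 and 38.6 CPM, against 13.2 and 12.6 CPM, and Ttn, which encodes the giant muscle protein titin, had 44.4 and 54.5 CPM, against 18.0 and 23.3 CPM. Pdgfa, a platelet-derived growth factor chain, had 59.2 and 21.4 CPM, against 23.7 and 7.87 CPM. Sphk1, a kinase that makes sphingosine 1-phosphate, had 56.5 and 24.1 CPM, against 22.7 and 9.07 CPM. Both Pdgfa and Sphk1 were also higher with IL-23, by 1.46 and 1.23 log2 units within Ccr6+ cells.

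Several receptors were among the 15. Pdcd1, which encodes the inhibitory receptor PD-1, had 118 CPM with IL-23 and 165 CPM without, against 50.5 and 73.2 CPM, and was seen in 32.9% and 38.6% of Ccr6+ cells. Ramp1, a subunit of the receptor for the neuropeptide CGRP, had 48.8 and 51.3 CPM, against 18.5 and 22.0 CPM. Unc5c, a netrin receptor, had 13.5 and 10.6 CPM, against 4.63 and 4.69 CPM. Zc3h12c, an RNase of the regnase family, had 49.7 and 25.3 CPM, against 18.0 and 11.7 CPM. Fam167a, Cpq and 1810073O08Rik completed the 15, with log2 ratios between 1.18 and 1.36.

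On the lower side, 13 of 17 measured genes of the NCR+ and type 1 list were lower in Ccr6+ cells and 0 were higher, with median log2 ratios of -1.46 with IL-23 and -1.996 without. The rule leaves out cells with Ncr1, so this list is not independent of how the cells were chosen. Tbx21, which encodes the type 1 regulator T-bet, had 4 and 9 UMIs in all, or 0.720 CPM (0.196 to 1.84) with IL-23 and 1.84 CPM (0.841 to 3.49) without, against 11.1 and 11.6 CPM in the other cells. Nkg7, a cytotoxic granule protein, had 3.24 and 1.84 CPM, against 36.7 and 31.6 CPM. Gzmb, the protease granzyme B, had 16.0 and 7.56 CPM, against 51.2 and 30.8 CPM. Klrk1, the activating receptor NKG2D, had 114 and 117 CPM, against 275 and 274 CPM. The chemokine Ccl3 had 5 UMIs in the IL-23 cells, or 0.900 CPM against 10.7 CPM, and 0 UMIs in the unstimulated cells. That 0 allows up to 0.613 CPM (3 counts in the group), so Ccl3 was at least 17.9-fold lower than the 11.0 CPM of the other unstimulated cells.

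Genes outside the cytotoxic list were lower too. Areg, the epidermal growth factor family ligand amphiregulin, had 3.42 CPM with IL-23 and 3.06 CPM without, against 32.5 and 33.8 CPM. Ccr2, a chemokine receptor of recruited leukocytes, had 4.14 and 3.27 CPM, against 29.7 and 20.3 CPM, and Lgals1, the lectin galectin-1, had 3.60 and 4.70 CPM, against 30.5 and 32.3 CPM. Ifitm3, an interferon-induced membrane protein, had 3 UMIs with IL-23, or 0.540 CPM (0.111 to 1.58), and 1.63 CPM without, against 20.6 and 16.7 CPM. Ctsw, the lymphocyte protease cathepsin W, had 11.9 and 10.4 CPM, against 78.9 and 77.8 CPM. The largest ratios belonged to the immunoglobulin transcripts Igkc, Igha and Jchain: Igkc had 7.20 and 16.3 CPM, against 323 and 1032 CPM. These ratios rest on few cells. Without the highest cell of each group Igkc had 6.30 and 8.79 CPM in Ccr6+ cells, against 8.40 and 787 CPM in the other cells, so its difference in the IL-23 library was under the 1.5-fold limit. When cells with 2 or more UMIs of B, plasma and myeloid genes were left out (92 IL-23 and 57 unstimulated Ccr6+ cells, chosen in part by these genes), Igkc and Igha no longer differed in the same direction in both libraries, and Jchain and Ifitm3 had log2 ratios of -0.67 and -0.80 in the library with the smaller difference. The counts over all genes were then 151 higher and 187 lower.

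Receptors and factors that guide function were split. Among 25 measured lineage transcription factors 4 were higher (Tox, Tox2, Batf3 and Foxs1) and 4 lower (Tbx21, Ikzf2, Ikzf3 and Prdm1). Ikzf2, the Ikaros family factor Helios, had 217 and 144 CPM, against 488 and 288 CPM. Of 13 checkpoint and co-stimulatory receptors 2 were higher (Pdcd1 and Alcam) and 6 lower. Ctla4, an inhibitory receptor, had 45.9 CPM with IL-23 and 4.09 CPM without, against 190.0 and 16.7 CPM, and Icos, a co-stimulatory receptor, had 577 and 337 CPM, against 1089 and 529 CPM. Of 10 chemokine and homing receptors 2 were higher (Cxcr5 and S1pr1) and 3 lower (Ccr2, Cxcr6 and Selplg). S1pr1, the receptor that guides lymphocyte exit from tissue, had 41.2 and 25.7 CPM, against 23.9 and 12.8 CPM.

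Cytokine receptors gave 1 higher (Ifngr2) and 3 lower (Il1r2, Il18rap and Tnfrsf1a) among 22. Il1r2, the decoy receptor for IL-1, had 11.9 and 10.0 CPM, against 45.5 and 45.7 CPM. Among 13 neuropeptide, lipid and metabolite receptors 2 were higher (Ramp1 and Rara). Rara, a retinoic acid receptor, had 25.9 and 41.5 CPM, against 14.3 and 20.4 CPM. Of 5 measured antigen presentation genes outside the rule Cd74, the invariant chain that MHC class II needs, was lower, with 244 and 293 CPM, against 513 and 502 CPM. Cd74 is known to be co-expressed with the genes of the rule, so its level is not independent of how the cells were chosen.

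Effector genes were higher more often than lower. Among 13 measured cytokines and TNF family ligands 5 were higher (Il17a, Il17f, Lta, Tnfsf11 and Tnfsf8) and Areg was lower. Il17a had 455 CPM with IL-23 and 42.3 CPM without, against 290.0 and 23.6 CPM, and Il17f had 1106 and 155 CPM, against 697 and 88.9 CPM. A single IL-23 Ccr6+ cell held 274 of the 2528 Il17a UMIs. Without that cell Il17a had 406 CPM, against the unchanged 290.0 CPM, which is under the 1.5-fold limit. The Il17a call in the IL-23 library therefore rests on that cell. Il22 differed less, with 28379 and 8244 CPM, against 26473 and 5602 CPM, or log2 ratios of 0.10 with IL-23 and 0.56 without. The STAT3 targets gave 0 higher and 2 lower among 20, the immediate early genes 0 and 0 among 21, the NF-kB list 0 and 1 among 19, the heat shock list 1 and 0 among 11, glycolysis and hypoxia 1 and 1 among 20, and the cell cycle list 0 and 0 among 4.

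Within the rule, levels of several of these genes moved with the number of Ccr6 UMIs in a cell. Batf3 stood at 17.2 CPM in the IL-23 cells just outside the rule (0 Ccr6 UMIs), 36.6 CPM at 1, 61.5 CPM at 2 and 103 CPM at 3 or more. In the unstimulated library the same steps gave 11.8, 43.8, 47.2 and 63.2 CPM. Alcam gave 15.8, 34.2, 62.3 and 108 CPM with IL-23 and 12.3, 38.9, 50.3 and 98.5 CPM without, so both genes were highest at 3 or more Ccr6 UMIs in each library. For unstimulated Batf3 the intervals at 1 (36.9 to 51.6) and 3 or more (45.8 to 85.2) overlapped. Cxcr5 did not rise among members, with 52.3, 40.2 and 45.8 CPM at 1, 2 and 3 or more with IL-23. Without IL-23 it had 36.4, 36.9 and 29.4 CPM. Palld changed little after the first step, with 121, 322, 338 and 360.3 CPM with IL-23, and Tnfsf11 likewise, with 98.1, 254, 254 and 265 CPM. Tbx21 went the other way at the first step, with 10.7 CPM at 0 and 0.302 CPM (0.00766 to 1.68) at 1 Ccr6 UMI. Pcp4, a calmodulin regulator, had 472, 134, 75.0 and 56.0 CPM with IL-23, but 191 CPM at 3 or more without IL-23, above the 74.9 CPM at 2. Median depth grew with the Ccr6 count among members, to 6703 and 5423 UMIs at 3 or more against 5635 and 4673 UMIs at 1, and its part was not tested.

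**Figure D2:**
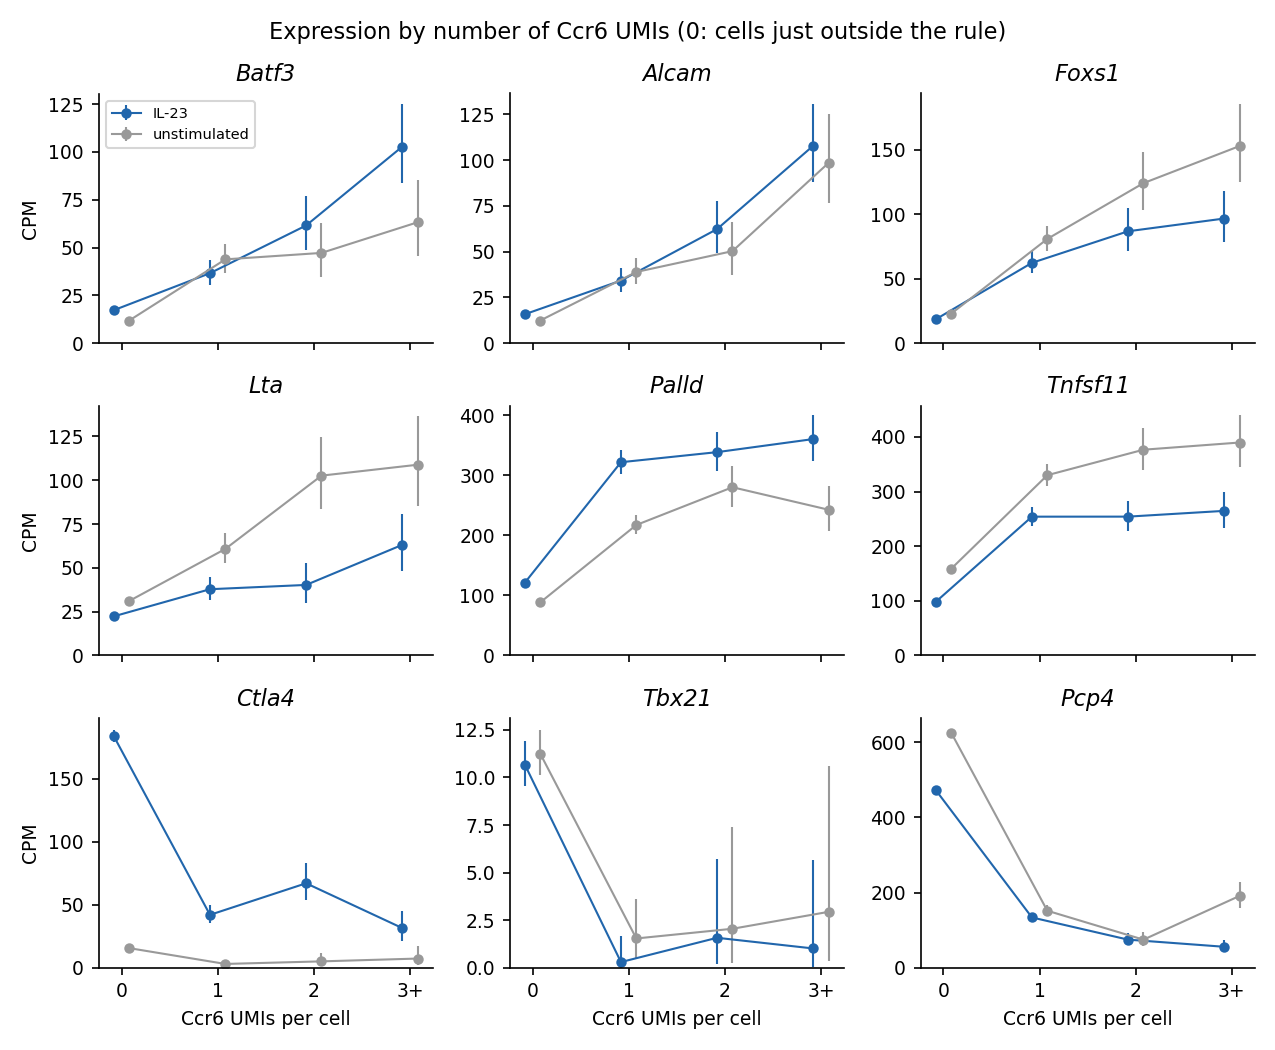
CPM of 9 genes by the number of Ccr6 UMIs per cell, with 0 for cells that met the rest of the rule; blue is the IL-23 library, grey the unstimulated library, and bars are 95% Poisson intervals. Batf3 and Alcam are highest at 3 or more UMIs in both libraries, while Ctla4 and Tbx21 are highest at 0.

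Other groups of sorted cells were compared in the same way. The 8 LTi-like markers, Ccr6 among them, summed to 947 and 1122 CPM in the Ccr6+ cells, against 1072 and 1308 CPM in Ccr6-positive cells with 3 or more MHC class II UMIs, 1190.2 and 1338 CPM in Ccr6-positive Cd4-positive cells, and 395 and 468 CPM in all other CD3-negative cells. These markers were thus not highest in the Ccr6+ cells described here. Against Ccr6-positive cells with 3 or more MHC class II UMIs (372 with IL-23 and 409 without), 57 of 6826 measured genes were at least 1.5-fold higher in both libraries (0.835%) and 76 lower (1.11%). Genes named here were taken from the 10 largest in each direction after their values were seen. Jag1, a Notch ligand, had 26.1 and 11.8 CPM in the MHC class II-low Ccr6+ cells, against 6.36 and 3.97 CPM in the MHC class II-bearing ones. Wwtr1, the Hippo pathway co-activator TAZ, had 40.5 and 50.9 CPM, against 16.7 and 12.7 CPM, and the Wnt receptor Fzd4 had 11.0 and 11.8 CPM, against 4.02 and 3.97 CPM. Arg1, the enzyme arginase 1, had 23.0 and 24.3 CPM, against 8.71 and 11.5 CPM. On the other side, Ccr7, the receptor that directs cells to lymph nodes, had 8.64 and 8.38 CPM, against 27.8 and 47.2 CPM. Plac8 had 50.6 and 72.3 CPM, against 189 and 265 CPM. The B cell genes summed to 11.2 and 8.78 CPM, against 25.1 and 31.7 CPM in the MHC class II-bearing cells. The highest MHC class II-bearing cell held 27 B cell UMIs with IL-23 and 40 without. The part of B cells or doublets in these differences was not tested.

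Against Ccr6-positive Cd4-positive cells (252 and 224), 19 of 6881 genes were higher (0.276%) and 67 lower (0.974%). Hopx, an atypical homeodomain protein, had 3.06 and 2.66 CPM in Ccr6+ Cd4- cells, against 12.3 and 10.5 CPM, and Ccdc88a, an actin-binding protein, had 20.7 and 27.0 CPM, against 58.5 and 77.3 CPM. Cd74 had 244 and 293 CPM, against 925 and 801 CPM. No limit on MHC class II UMIs was set for the Cd4-positive cells, so this difference is not independent of how the cells were chosen. The Cd4-positive cells were also deeper, at 7468 and 5703 UMIs. Against Ncr1-positive cells without Ccr6 (1258 and 1052), 580 of 6874 genes were higher (8.44%) and 468 lower (6.81%). Palld had 19.6 and 12.2 CPM in these Ncr1-positive cells, Foxs1 4.64 and 4.66 CPM, Pdcd1 7.87 and 9.75 CPM, and Ramp1 2.42 and 3.78 CPM, all below the values of the Ccr6+ cells given above. None of these genes was among the 10 largest higher ratios against the MHC class II-bearing or the Cd4-positive Ccr6-positive cells. Absence from those lists does not exclude a smaller difference, and the levels of these genes in those groups are not given here. The values above therefore do not tell whether these genes set the Ccr6+ cells apart from those groups. The Ncr1-positive cells had 22.2 and 25.2 CPM of Tbx21 and 61.9 and 72.3 CPM of Xcl1, a chemokine of cytotoxic lymphocytes that had 4.68 and 2.04 CPM in Ccr6+ cells.

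The second comparison asked how the Ccr6+ cells differed after 2 hours of IL-23. Il17a, Il17f and Il22 and 13 of 21 measured STAT3 target genes were higher, and Lta, Ltb, Bcl2 and 3 of 11 heat shock genes (Hspa1a, Hspa1b and Hsph1) were lower. Of 7125 measured genes 249 were at least 1.5-fold higher (3.49%) and 409 at least 1.5-fold lower (5.74%). The median gene differed by -0.11 log2 units. TMM scaling, under which the median moved to 0.0064, gave 336 higher and 218 lower genes, so the balance of the directions depends on the scaling. Il22 alone took 2.84% of all UMIs of the Ccr6+ cells with IL-23 and 0.824% without. In the other CD3-negative cells 286 of 6982 genes were higher (4.1%) and 262 lower (3.75%). Their sums held 50511933 UMIs with IL-23 and 48401461 without, against 5557218 and 4895450 UMIs in Ccr6+ cells. Counting error is therefore larger in the Ccr6+ ratios, and the counts of the 2 cell groups cannot be compared directly.

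Batf, an AP-1 family partner needed for IL-17 programs in T cells (chr12:85686669-85709087), had the largest ratio of the 15 named higher genes, with 517 CPM (498 to 536) with IL-23 and 45.6 CPM (39.8 to 51.9) without, a log2 ratio of 3.50 (3.31 to 3.71). It was seen in 82.4% of IL-23 and 18.6% of unstimulated Ccr6+ cells. Il17a (chr1:20730905-20734496) had 455 and 42.3 CPM, a log2 ratio of 3.42 (3.22 to 3.64), and the neighbouring Il17f had 1106 and 155 CPM, a ratio of 2.83 (2.72 to 2.94). Gadd45g, a stress-response protein that feeds p38 signalling, had 966 and 138 CPM. Sbno2, a transcriptional co-regulator induced through STAT3 (chr10:80056992-80105571), had 201 and 28.8 CPM, a ratio of 2.80 (2.55 to 3.07). Il22 (chr10:118204942-118210047) had 28379 CPM (28239 to 28519) and 8244 CPM (8163 to 8324), a log2 ratio of 1.78 (1.77 to 1.80).

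The rest of the 15 had various roles. Cebpd, a C/EBP family factor, had 286 CPM with IL-23 and 73.7 CPM without. Bcl3, an IκB family co-activator, had 90.7 and 24.3 CPM, and Tnip3, an inhibitor of NF-kB signalling, had 51.6 and 9.40 CPM. Ahr, the aryl hydrocarbon receptor that intestinal ILC3s need, had 144 and 39.8 CPM. Ly6a, the surface protein Sca-1, had 68.2 and 11.2 CPM. Elovl6, a fatty acid elongase, had 79.2 and 20.8 CPM, and Gcnt2, a glycosyltransferase, had 295 and 77.2 CPM. Apex1, a DNA repair enzyme, had 83.3 and 22.5 CPM, and Pqlc1 and Stom (the membrane protein stomatin) had log2 ratios of 2.83 and 1.83. The intervals of the IL-23 and unstimulated Ccr6+ cells did not overlap for any of the 15.

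**Figure D3:**
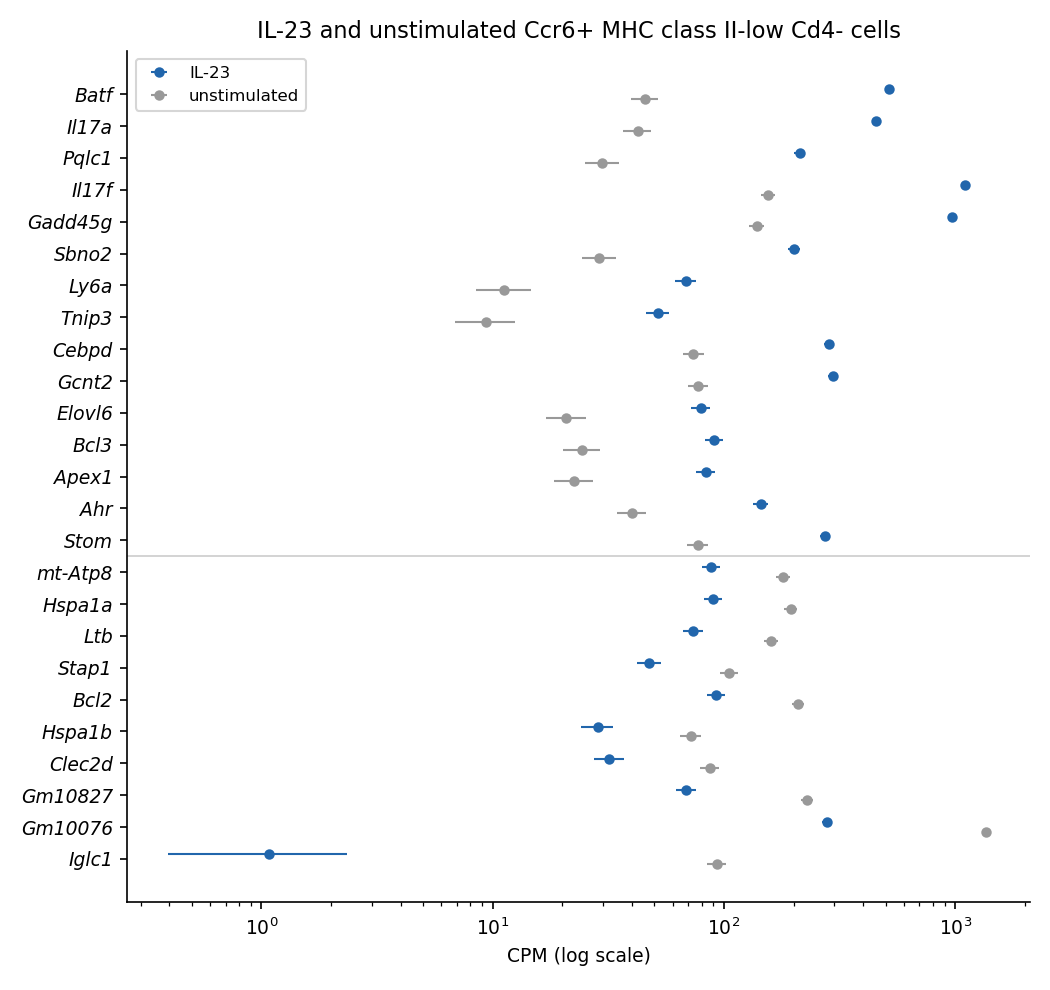
CPM on a log axis of the 15 genes named as higher and the 10 named as lower with IL-23, in Ccr6+ cells of the IL-23 library (blue) and the unstimulated library (grey); bars are 95% Poisson intervals. Batf stands at 517 with IL-23 and 45.6 CPM without at the top, and the genes under the line have the opposite order.

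The promoters of the genes higher with IL-23 are shown because STAT3 and nuclear receptors bind short sequence patterns that can be read in them. Both patterns were searched in the 250 bases before each RefSeq gene start (GRCm38.p6): TTCNNNGAA, the core of STAT binding sites, which reads the same on both strands, and AGGTCA, the core site of many nuclear receptors, searched on both strands (AGGTCA or TGACCT). TTCNNNGAA was in 7.02% of 32851 promoters and AGGTCA in 14.02%. Of the 15 genes 11 were in the table, with 15 promoters, of which 3 (Gcnt2 and Sbno2) held TTCNNNGAA and 4 (Elovl6, Il17a, Il17f and Sbno2) held AGGTCA. TTCNNNGAA was about as frequent in the other named lists, in 1 of 5 promoters of genes lower with IL-23, 4 of 19 of genes higher in Ccr6+ cells and 1 of 6 of genes lower in them. Socs3, a classical STAT3 target, is added for comparison. The sequences run 5′ to 3′ on the strand of the gene, and capitals mark the matches.
Sbno2, first promoter (chr10:80102703-80102952, minus strand): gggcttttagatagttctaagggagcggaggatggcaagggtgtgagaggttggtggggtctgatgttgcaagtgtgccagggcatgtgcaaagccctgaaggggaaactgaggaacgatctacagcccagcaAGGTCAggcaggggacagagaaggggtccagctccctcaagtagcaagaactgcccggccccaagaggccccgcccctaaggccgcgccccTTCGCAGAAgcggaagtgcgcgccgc
Sbno2, second promoter (chr10:80101188-80101437, minus strand): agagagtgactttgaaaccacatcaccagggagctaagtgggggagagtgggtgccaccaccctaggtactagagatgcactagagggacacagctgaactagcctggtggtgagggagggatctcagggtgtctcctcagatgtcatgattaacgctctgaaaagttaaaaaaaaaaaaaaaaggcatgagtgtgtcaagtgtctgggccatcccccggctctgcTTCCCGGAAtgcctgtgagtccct
Socs3 (chr11:117969367-117969616, minus strand): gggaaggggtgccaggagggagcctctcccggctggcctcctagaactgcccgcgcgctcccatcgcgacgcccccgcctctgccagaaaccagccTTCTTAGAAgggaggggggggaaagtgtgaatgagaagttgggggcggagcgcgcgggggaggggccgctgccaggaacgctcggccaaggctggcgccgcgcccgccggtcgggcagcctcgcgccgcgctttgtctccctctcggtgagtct
Il17a (chr1:20730655-20730904, plus strand): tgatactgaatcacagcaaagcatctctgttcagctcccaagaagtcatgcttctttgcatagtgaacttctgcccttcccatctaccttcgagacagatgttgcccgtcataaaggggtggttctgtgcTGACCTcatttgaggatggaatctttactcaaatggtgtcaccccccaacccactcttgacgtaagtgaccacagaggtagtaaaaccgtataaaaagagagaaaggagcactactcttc
Il17f (chr1:20784271-20784520, minus strand): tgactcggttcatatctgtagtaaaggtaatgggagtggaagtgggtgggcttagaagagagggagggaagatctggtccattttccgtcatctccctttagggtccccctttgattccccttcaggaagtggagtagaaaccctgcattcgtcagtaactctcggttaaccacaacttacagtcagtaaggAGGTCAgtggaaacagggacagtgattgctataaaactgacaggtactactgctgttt
In the first Sbno2 promoter the STAT pattern lies 26 to 18 bases before the start, in the second 24 to 16 bases before it, and in Socs3 154 to 146 bases before it. The AGGTCA match lies 120 to 115 bases before the Il17a start and 58 to 53 bases before the Il17f start. Within these windows neither Il17a nor Il17f holds the STAT letters. A match describes these letters only and says nothing of binding.

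Pathway lists showed which groups contributed. Of 21 measured STAT3 target genes 13 were higher with IL-23 and 0 lower, with a median log2 ratio of 1.31, against -0.11 over all measured genes. Besides Batf, Bcl3, Cebpd, Sbno2, Gadd45g and Ahr they were Socs3, Pim2, Myc, Prdm1, Hif1a, Il6st and Icos. Socs3, the feedback inhibitor of STAT3, had 936 and 377 CPM, and the survival kinase Pim2 had 216 and 67.4 CPM. Prdm1, which encodes the repressor Blimp-1, had 36.0 CPM with IL-23 and 3.47 CPM without. In the IL-23 receptor pathway 3 of 15 genes were higher (Stat3, Stat5b and Socs3) and 0 lower. Stat3 had 745 and 478 CPM. Il23r itself had 200.0 and 141 CPM, a log2 ratio of 0.51 (0.37 to 0.65), under the 1.5-fold limit.

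Effector genes were split within the group. Of 13 measured cytokines and ligands Il22, Il17a, Il17f, Il6 and Tnfsf14 were higher with IL-23, and Tnf, Lta and Ltb were lower. Ltb, the membrane-bound lymphotoxin subunit, had 73.6 CPM with IL-23 and 159.9 CPM without, a log2 ratio of -1.12 (-1.30 to -0.95), and Lta had 42.8 and 75.8 CPM, a ratio of -0.82 (-1.06 to -0.58). Tnf had 31.7 and 56.2 CPM. Il6 had 16.6 CPM with IL-23 and 2.25 CPM without. Tnfsf11 had 256 and 347 CPM, a log2 ratio of -0.44, and Csf2 24.5 and 29.8 CPM, and neither reached the limit.

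Of 24 measured lineage factors 7 were higher (Ahr, Tox2, Ikzf1, Ikzf2, Batf, Zeb2 and Prdm1) and Gata3, a factor that all ILCs use and that type 2 cells keep high, was lower with 26.3 and 53.3 CPM. Of 22 cytokine receptors 6 were higher, among them Il1r1 with 389 and 113 CPM, Il2ra with 715 and 476 CPM and Il15ra with 40.8 and 18.2 CPM. Kit, the stem cell factor receptor, was the 1 lower member, with 321 and 505 CPM. Among 14 checkpoint and co-stimulatory genes 6 were higher, including Ctla4 with 45.9 CPM with IL-23 and 4.09 CPM without and Tnfrsf18 (GITR) with 257 and 144 CPM, and Cd27 was lower. The short-chain fatty acid receptor Ffar2 had 46.6 and 15.9 CPM and was the 1 higher gene among 13 neuropeptide, lipid and metabolite receptors, of which Rara was lower. In the chemokine receptor list S1pr1 was higher and Cxcr4 and Cxcr6 were lower among 9; Cxcr6 had 237 and 434 CPM.

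Of 20 glycolysis and hypoxia genes 6 were higher and Hk2 was lower. Ldha, the lactate dehydrogenase subunit, had 305 CPM with IL-23 and 167 CPM without, and Hif1a had 267 and 164 CPM, whereas the hexokinase Hk2 had 349.8 and 567 CPM. Immediate early genes gave 4 higher (Jund, Egr1, Zfp36 and Btg2) and Nr4a3 lower among 21, and the NF-kB list gave Bcl3 and Icam1 higher and Tnf lower among 19. The LTi list gave 3 higher (Il2ra, Il1r1 and Tox2) and 3 lower (Lta, Ltb and Kit) among 16. Antigen presentation genes outside the rule gave 0 higher and 1 lower (Cd40) among 6, the NCR+ and type 1 list 4 higher (Gzmb, Il18rap, Ctla4 and Ccl5, the last of these seen in 14 IL-23 and 9 unstimulated cells) and Cxcr6 lower among 11, and the cell cycle list 1 higher (Mcm3) among 3.

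The named genes that were lower with IL-23 were of several kinds. Bcl2, the anti-apoptotic protein, had 92.5 CPM with IL-23 and 209 CPM without, a log2 ratio of -1.18 (-1.33 to -1.02). Clec2d, a ligand of NK receptors, had 31.9 and 86.6 CPM, and Stap1, a signalling adaptor, had 47.5 and 105 CPM. The mitochondrial gene mt-Atp8 had 87.6 and 179.8 CPM. Gm10076 had 279 and 1363 CPM, and Gm10827 had 68.7 and 228 CPM; both are predicted genes, and reads of near-identical copies can be split among such loci. Hspa1a and Hspa1b, near-identical heat shock protein genes, had 89.97 and 28.4 CPM with IL-23, against 194 and 71.7 CPM without. Heat shock RNA sat in few cells: 41 of 840 IL-23 and 62 of 902 unstimulated Ccr6+ cells had a Hspa1a UMI. Iglc1, an immunoglobulin light chain gene, was the largest lower ratio at 1.08 and 93.1 CPM, but 446 of the 456 unstimulated UMIs came from a single cell, and without that cell its level was 2.05 CPM.

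Single cells showed how the cytokine transcripts were spread. After each cell was thinned to 2000 UMIs, which left out 19 IL-23 and 17 unstimulated Ccr6+ cells, the median cell held 43 Il22 UMIs with IL-23 and 10 without. The 90th percentile was 104 UMIs with IL-23 and 35.6 without, and the highest cell had 322 and 207. The groups overlapped: 10.8% of IL-23 cells had fewer than 20 Il22 UMIs, and 25.9% of unstimulated cells had 20 or more. Before thinning an Il22 UMI was found in 840 of 840 and 869 of 902 cells. Free RNA or doublets may add to such counts, and the part of either was not tested. Other cells were looked at for this: 6 kept cells per library had B cell genes and no UMI of a set of ILC3 genes. That set includes Il7r, Il23r and Kit. Among these cells an Il22 UMI was seen in 5 with IL-23 (394 CPM, median depth 6441.5 UMIs) and in 0 without (median depth 4142.5 UMIs). An Il17a, Il17f or Batf UMI was seen in 0 of either. A Socs3 UMI was seen in 1 of these cells with IL-23 and in 2 without. Among cells with plasma cell genes chosen in the same way, an Il22 UMI was seen in 2 of 2 with IL-23 and in 1 of 6 without.

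**Figure D4:**
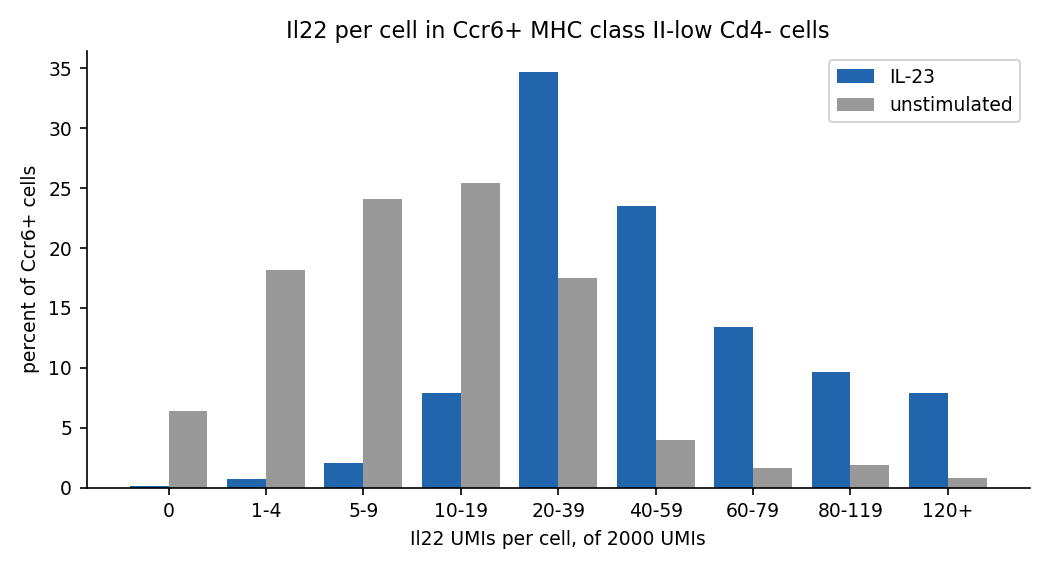
Percent of Ccr6+ cells by Il22 UMIs per cell after thinning to 2000 UMIs; blue bars are the 821 IL-23 cells and grey bars the 885 unstimulated cells. The tallest blue bar is 20 to 39 UMIs with 34.7% of cells, and the tallest grey bar is 10 to 19 UMIs with 25.4%.

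Il17a and Il17f were found in part of the cells. After thinning Il17a was seen in 22.2% of IL-23 cells (19.4 to 25.2) and 5.65% of unstimulated cells (4.22 to 7.38), and Il17f in 54.9% (51.5 to 58.4) and 15.5% (13.2 to 18.0). Before thinning the shares were 32.1% and 8.65% for Il17a and 71.9% and 27.5% for Il17f. The tenth of IL-23 cells with the most Il17a held 82.9% of its UMIs, against 51.3% for Il17f and 29.6% for Il22. Before thinning Il17f was seen in 87.0% of Il17a-positive and 64.7% of Il17a-negative IL-23 cells, and in 65.4% and 23.9% of unstimulated cells. Deeper cells have more of both, so the shares were also taken at equal depth. After thinning they were 74.2% and 49.5% of IL-23 cells, and 42% and 13.9% of unstimulated cells. Il17f was thus seen more often in Il17a-positive cells at equal depth too, and the cause was not tested. Socs3 was seen in 74.9% of thinned IL-23 cells and 46.0% of thinned unstimulated cells, and Batf in 55.4% and 8.81%.

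Genes were ranked by variance over mean across thinned cells, taking the lower value of the 2 libraries, where equal cells would give about 1. Il22 ranked highest, with 36.9 with IL-23 and 28.5 without. Hspa1a, with 16.8 and 25.3, and the nuclear RNA Malat1, with 16.7 and 15.5, came next. At the same relative spread this measure grows with the mean. The thinned mean was 55.3 and 16.4 UMIs for Il22, against 0.218 and 0.423 for Hspa1a. The rank of Il22 therefore does not make it the most unevenly spread gene relative to its level. The neutrophil chemokine Cxcl2 gave 6.44 and 10.5 and was seen in 11.0% and 11.4% of cells, and the tenth of cells richest in it held 97.2% and 96.6% of its UMIs. Iron storage (Fth1), polyamine synthesis (Odc1), actin sequestration (Tmsb4x) and the genes Gadd45b, Junb, Plac8, Pcp4 and Hspa1b followed, with ratios between 3.72 and 7.55. Il17a, with 14.01 and 2.26, and Il17f, with 7.65 and 3.26, ranked lower by this rule through their unstimulated values. Pcp4 was seen in 6.70% and 6.67% of thinned Ccr6+ cells. Ccr6 itself gave 0.846 and 0.751, in cells that all had at least 1 Ccr6 UMI before thinning.

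The response of the Ccr6+ cells was set against that of the other CD3-negative cells, whose STAT3 target median was 1.21. The difference of log2 ratios was not tested, since each cell group has 1 library per condition. Batf was lower in its ratio in Ccr6+ cells, 3.50 against 4.21, with 45.6 CPM in unstimulated Ccr6+ cells, against 28.4 CPM in the other unstimulated cells, and similar levels with IL-23, 517 and 526 CPM. Il22 had a ratio of 1.78 against 2.24, again with a higher unstimulated level in Ccr6+ cells, and Il1r1 a ratio of 1.78 against 2.39. Ncoa7, a nuclear receptor co-activator, had 0.67 against 1.39, and Plscr1, an interferon-induced scramblase, had 0.97 against 1.66. Lilrb4a, an inhibitory receptor, had 0.40 against 1.19, and Irf2bpl had 1.28 against 1.92. Hspa1a had -1.11 against -0.25 and Iglc1 -6.32 against -0.81, and both rest on few cells.

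Of the 8 genes named for a larger ratio in Ccr6+ cells, Sbno2 had 2.80 against 2.36. Cytip, a regulator of leukocyte adhesion, had 0.99 against 0.49, with 632 CPM with IL-23 and 319 CPM without in Ccr6+ cells, against 876 and 622 CPM. Cxcl3, a neutrophil chemokine, had 0.55 against 0.08, with 60.6 and 41.5 CPM in Ccr6+ cells, against 165 and 156 CPM. Got1, the cytosolic aspartate transaminase, had 0.26 (0.03 to 0.49) against -0.24 (-0.30 to -0.19). Ston2, Isg15, Bicd1 and B930036N10Rik had ratios of 0.20, 0.17, -0.59 and -0.18 in Ccr6+ cells, against -0.30, -0.30, -1.03 and -0.61 in the other cells. Over 6785 genes measured in both, the median difference was -0.0060 log2 units.

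**Figure D5:**
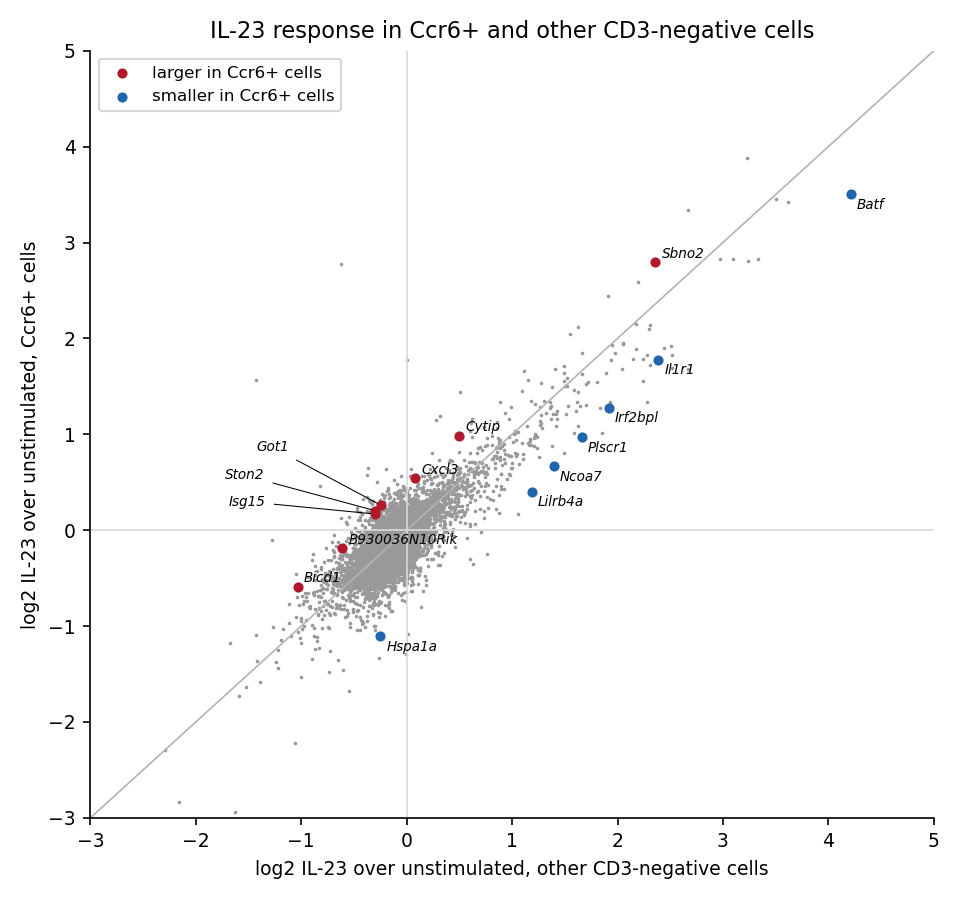
The log2 ratio of IL-23 over unstimulated in other CD3-negative cells (x axis) and in Ccr6+ cells (y axis) for 6785 genes, with the line of equal response; the 4 genes outside the axes (Cxcl1, Grip2, Igha and Iglc1) are not drawn. Batf, at 4.21 and 3.50, lies below the line with the other genes in blue, and Sbno2, at 2.36 and 2.80, above it with those in red.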

How the data were processed

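Matrices of UMI counts per gene and cell barcode were analysed as the authors deposited them, as filtered raw counts with no normalization. Per the submitters' processing notes, the build was mm10 and the tool Cell Ranger 3.1.0, whereas the matrix headers, per the file headers, name cellranger 6.0.0. Symbols come from the deposited gene tables, coordinates from GENCODE vM21 (GRCm38) and promoters from RefSeq. The cells and gene lists were chosen with earlier results of these data known. No doublet caller was run, so doublets may remain. Some list members are not reported here, though counts and sums over the lists include them. Leaving out cells above the 95th percentile of UMIs was an alternative.

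UMIs were summed over each cell group and library and scaled to CPM, with 0.5 UMI added for log2 ratios. Intervals are exact: Poisson for CPM, binomial (Clopper-Pearson) for shares, and conditional binomial for ratios. They and the limit that a count of 0 allows (3 counts) cover counting error only. Genes named were, for the cell groups, the 15 highest and 10 lowest by the ratio nearer to 1 over the 2 libraries. For IL-23, and for the 8 largest differences in response in each direction, they were ranked among genes at 50 CPM or more in 1 or both libraries (the 15 highest and 10 lowest ratios). The 12 with the highest variance over mean, and genes of the lists, could also be named. Thinning to 2000 UMIs used seed 7. Library sums were 61359895 UMIs with IL-23 and 58148889 without over kept cells. Scripts ran in Python 3.11.15 with numpy 2.4.6, scipy 1.17.1, pandas 2.3.3 and matplotlib 3.10.9, and were tested on simulated data. Scaling factors of edgeR 4.0.16 (TMM) and DESeq2 1.42.0 were alternatives only, and no test of either was used.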

Additional observations from a re-analysis of the deposited data

Results flagged for a closer look

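Got1, the cytosolic aspartate transaminase, moved in opposite directions in the 2 cell groups. Its log2 ratio of IL-23 over unstimulated was 0.26 in Ccr6+ cells, with 68.7 CPM with IL-23 and 57.4 CPM without. In the other CD3-negative cells it was -0.24, with 109 and 128 CPM. The difference was 0.50 log2 units. No test was run, since there was 1 library per condition.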

How the results depend on the processing

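No paired analysis was possible because each condition has 1 library, and for the same reason no replicate could be left out. The share of Ccr6+ cells was 9.79% with IL-23 and 8.95% without. It became 3.64% and 2.79% with at least 2 Ccr6 UMIs, 6.82% and 6.28% with no MHC class II UMI, and 6.17% and 5.74% after thinning. With at least 200 genes per cell it was 9.01% with IL-23. Against the other CD3-negative cells the 146 higher genes became 221 with at least 2 Ccr6 UMIs. They became 41 and the 195 lower genes 75 with at least 50 CPM, 550 and 611 with no CPM filter, and 580 and 468 against Ncr1-positive cells. For IL-23, the 249 higher and 409 lower genes became 444 and 805 after thinning, 119 and 79 with at least 50 CPM, and 517 and 982 with no CPM filter. The lower genes alone became 907 with at least 2 Ccr6 UMIs, 218 with TMM and 197 with DESeq2 size factors, which gave 363 higher. The causes were not tested beyond what each setting changes by construction. Leaving out cells with Hspa1a or Hspa1b UMIs, chosen after seeing the data, left out 46 IL-23 and 77 unstimulated Ccr6+ cells and gave 271 higher and 460 lower genes. It turned the difference in the Iglc1 response to 0.021, and thinning turned that of Isg15 to -0.039. Without cells above the 95th percentile of UMIs, the nearer log2 ratio of Igkc in Ccr6+ over other cells was -0.30, under the 1.5-fold limit. Among the named genes, 215 of 250 recomputed ratios of IL-23 over unstimulated, 212 of 275 of Ccr6+ over other cells and 110 of 128 differences in response stayed within their counting intervals. These totals pool settings that reuse nearly the same cells, such as at least 200 genes, where 0 moved. Thinning moved 11 of 25 IL-23 ratios, 9 of 25 ratios over other cells and 6 of 16 differences, and reversed 1 difference. At least 2 Ccr6 UMIs moved 8, 9 and 4 of them. Genes under about 10 CPM in these groups rest on few UMIs, and differences of 1.5-fold there are hard to tell from counting error.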
